A study of Rattus norvegicus with 13 samples.

Results

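The genes described here encode the proteins of the mitochondrial ribosome and were read in fat from female rats (Sprague Dawley) whose fathers differed in diet. They are all genes whose symbol in the platform annotation is Mrpl or Mrps followed by a digit, where a probe carries 1 symbol, with the brightest probe kept for each symbol. This gave 68 genes of 14506 in all, 41 of the large subunit (Mrpl) and 27 of the small subunit (Mrps). A probe listed for both Mrpl20 and Ankrd65 was left out because it names 2 genes. Control fathers ate standard chow with 9% fat and high-fat fathers ate pellets with 43% fat, and mating with chow-fed females took place when the fathers were 15 weeks old. Daughters of both groups were weaned at 3 weeks, ate chow throughout, and gave their fat at 14 weeks. There were 7 daughters of control fathers and 6 of high-fat fathers, with 1 array each, and each is named here by the animal number of its label. The labels do not name the fat depot, and they tie no daughter to a father or litter, so p-values treat daughters as independent and measure the spread between these animals. In whole fat, fewer cells of a type and less RNA per cell cannot be told apart.

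The mitochondrial ribosome translates the few proteins encoded by mitochondrial DNA, which are core subunits of the respiratory chain and of ATP synthase. Its RNAs are made inside the organelle, while all of its proteins are encoded in the nucleus, made in the cytosol and imported. The large subunit joins amino acids and the small subunit reads the messenger RNA. Some of the proteins have counterparts in bacterial ribosomes and others are found only in mitochondria. In fat, mitochondria are densest in thermogenic adipocytes, and white adipocytes also depend on them for lipid synthesis.

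Array values are on the log2 scale, and precision is limited by the 13 arrays. Array medians lay between 7.66 and 7.72, and the standard deviation (SD) of all probe values of an array lay between 1.78 and 1.96. The adipocyte genes were bright in all arrays, with Adipoq between 13.64 and 13.96. Skeletal muscle genes stood out in controls 662 and 664 and in high-fat daughters 619 and 629, where Ckm, the creatine kinase of muscle, read 10.77 to 13.03, against 8.32 to 8.62 in the other arrays. Ucp1, the uncoupling protein of brown fat, read 9.28 to 11.02 in controls 658 and 662 and high-fat daughters 629 and 663, and 6.11 to 7.40 elsewhere. Controls 631 and 658 and high-fat 660 had the smallest SD, 1.86, 1.78 and 1.86. The members' counts and medians are given with and without these sets of arrays. Some lists of other cell type markers lay mostly on 1 side between the diet groups, and some did not. Of all genes 58.0% were higher in high-fat daughters, as were 84.4% of those with a mean level above 8.14, the middle of all genes. The adipocyte and endothelial genes were in that upper range, with median levels of 12.67 and 10.45. For 12 adipocyte genes the mean was 12.25 ± 0.04 (SD) over 7 controls, against 12.36 ± 0.07 over 6 high-fat daughters, with 10 of 12 higher. The mean of 14 T and NK cell genes was 7.77 ± 0.24 (SD) against 7.57 ± 0.12, with all 14 lower in high-fat daughters. That of the 6 measured mesothelial genes was 8.24 ± 0.51 (SD) against 7.88 ± 0.42, with all 6 lower. The 7 measured endothelial genes had a mean of 10.40 ± 0.18 (SD) against 10.52 ± 0.10, with all 7 higher and a median difference of 0.10. At an unadjusted p under 0.05 in limma there were 4 adipocyte, 1 T and NK cell, 1 mesothelial and 0 endothelial genes, against 7.96% of all genes. Of 10 macrophage genes 5 were higher and 5 lower, with a median difference of 0.01. Among the 5 measured B cell genes 3 were higher, and among the 11 measured brown fat genes 5 were. The part of these markers in the members' values was not tested.

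The mitochondrial ribosomal protein genes moved together from array to array, and this common movement was larger than the difference between the diet groups. Their mean log2 level was 9.04 ± 0.11 (SD, n = 7) in controls, and in the high-fat group it was 9.14 ± 0.11 (SD, n = 6). In controls it ran from 8.83 to 9.14 with a median of 9.09, and in high-fat daughters from 8.94 to 9.24 with a median of 9.16. The groups overlapped, with control 658, high-fat 660 and control 631 lowest and high-fat 619 and 624 highest.

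The common movement showed in nearly every member. In control 658 only 2 of 68 members were above their own median over the 13 arrays, Mrps10 and Mrps12, both of the small subunit. In control 631 there were 3, and in high-fat 660 there were 6. High-fat 619 had 61 members above their own median and high-fat 624 had 54. Of the 68 members, 59 were below or at their own median in all of controls 631 and 658 and high-fat 660.

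Other genes of the upper part of the expression range moved in the same direction in these arrays, though a smaller share of them did. Of the 68 members, 53 had a mean level above the middle of all genes, 8.14. In control 658, 1.89% of these 53 members were above their own median, against 10.2% of all genes in that part of the range. In control 631 the shares were 3.77% and 18.8%, and in high-fat 660 they were 7.55% and 28.02%. In high-fat 619 they were 88.7% and 70.1%. The arrays in which members were low were also those of smallest SD. Members below 8.14 were low there too. Of these 15, only Mrps10 was above its own median in control 658, against 38.0% of all genes at any level. In control 631 it was only Mrpl44 (36.8% of all genes), and in high-fat 660 only Mrpl2 and Mrpl44 (46.5%). The share for genes below 8.14 alone was not taken. In these 3 arrays it is higher than that of all genes, because the share above 8.14 was lower. The part of array SD in the members' low values was not tested.

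**Figure D1:**
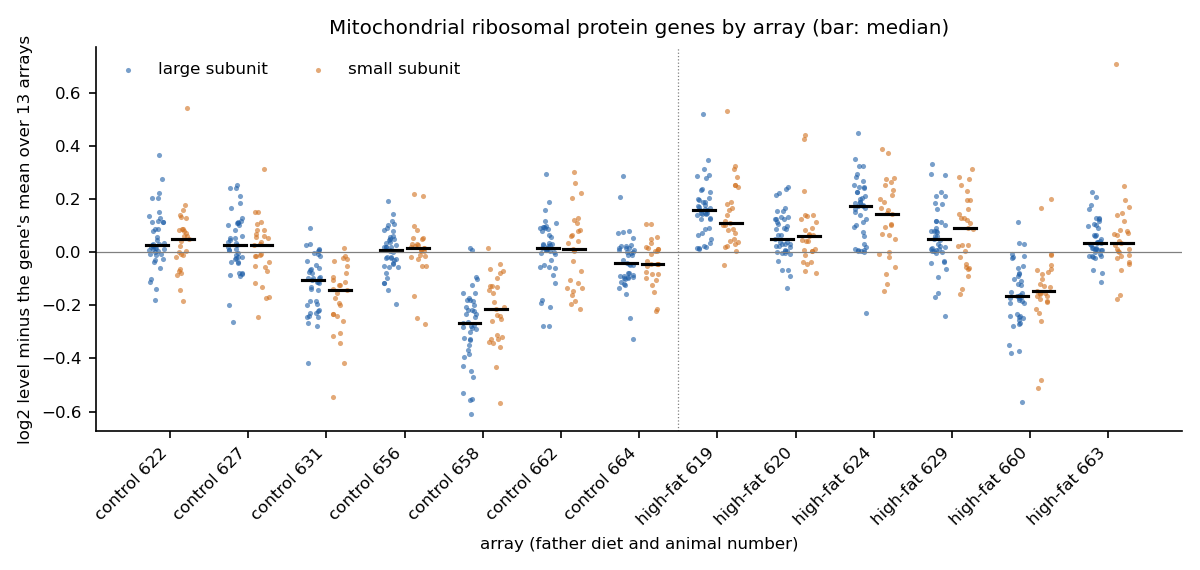
Each point is 1 of 68 mitochondrial ribosomal protein genes in 1 array, as its log2 level minus its own mean over 13 arrays, with large subunit genes in blue, small subunit genes in orange and the median as a bar. Both subunits lie low together in controls 631 and 658 and in high-fat 660, and high together in high-fat 619 and 624.

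Arrays with muscle or Ucp1 signal lay at several places in this order. Of the 4 arrays with muscle signal, high-fat 619 had the highest member mean of all 13, 9.24, high-fat 629 had 9.16, and controls 662 and 664 had 9.10 and 9.05. Of the 4 arrays with high Ucp1, control 658 had the lowest member mean of all 13, 8.83, control 662 had 9.10, and high-fat 629 and 663 had 9.16 and 9.14. Array SD was ordered much like the member mean, from 1.78 in control 658 to 1.96 in high-fat 619 and 624.

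**Figure D2:**
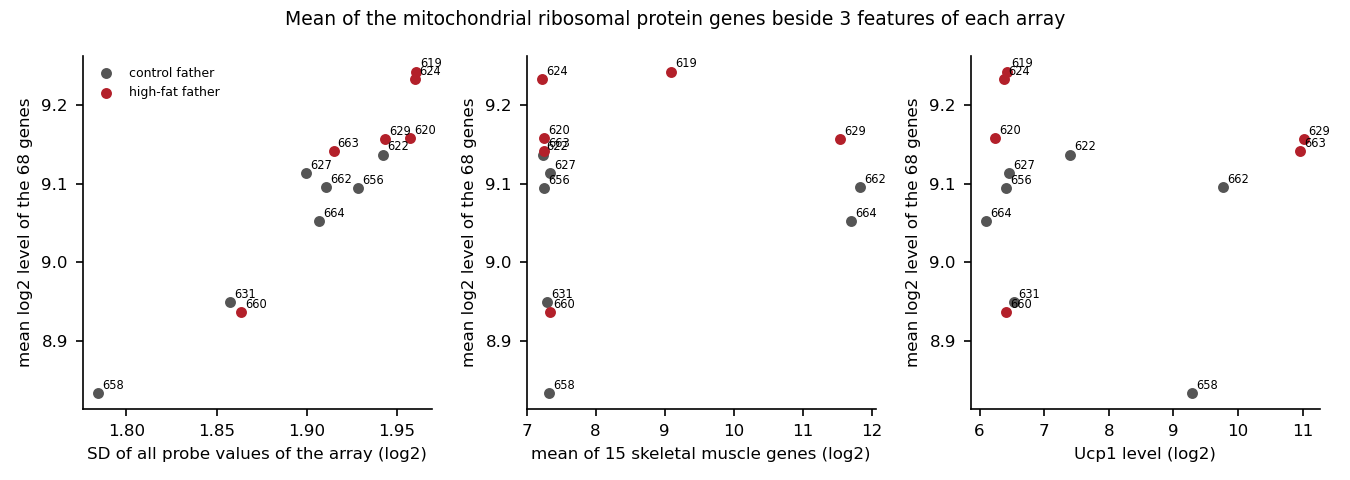
Each point is 1 array, labelled by animal number and coloured by father diet, with the mean log2 level of the 68 genes on the vertical axis and, from left to right, the array's SD, the mean of 15 skeletal muscle genes and the Ucp1 level on the horizontal axis, all on the log2 scale. The mean of the 68 genes is lowest, at 8.83, where the array SD is smallest, while arrays with much muscle or Ucp1 signal lie across the range.

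Most members had a slightly higher mean in daughters of high-fat fathers, and none passed the test over all genes. High-fat minus control, the 68 members had a median log2 difference of 0.11, against 0.03 over all 14506 genes. A higher mean was seen for 63 members and a lower one for 5, while 58.0% of all genes were higher. In limma's test 0 of 68 members had an adjusted p under 0.05, as did 0 of all genes, a share of 0.0%. At an unadjusted p under 0.05 there were 6 members, all higher, which is 8.82% of the members against 7.96% of all genes in either direction and 5.42% in the higher direction. The share in either direction is near that of all genes.

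The shift of the members above the middle level was close to that of other bright genes. Of all genes with a mean level above 8.14, 84.4% were higher in the high-fat group, with a median of 0.09, and the 53 members there had a median of 0.11 with 50 higher. Of the 15 members below that level, all but Mrpl18 and Mrpl50 were higher, against 58.0% of all genes at any level. Genes below 8.14 were not taken as a set of their own, but their share is below 58.0%, because that of genes above 8.14 was 84.4%. With the SD of each array as a term in the fit, the median of the members was 0.0048, with 35 higher and 33 lower, and that of all genes was 0.0034. Without controls 631 and 658 and high-fat 660 it was 0.07, and without control 658 alone it was also 0.07. It was 0.10 without the 4 arrays with muscle signal, and 0.07, with 56 members higher, without the 4 arrays with high Ucp1, of which control 658 is 1. The count of 6 was sensitive to the handling of arrays. It was 11 with arrays centred on their median (9.78% of all genes), 13 with array weights (15.0%), 16 without the 3 arrays of smallest SD (9.62%) and 3 without the 4 arrays with muscle signal (3.79%). Without the 4 arrays with high Ucp1 it was 4 (7.17%). It was 28 without high-fat 660 (17.3%) and 3 without high-fat 624 (3.5%).

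The large and the small subunit had close values. The median difference was 0.10 for the 41 large subunit genes, 37 of them higher, and 0.12 for the 27 small subunit genes, 26 of them higher. In controls the mean of the large subunit was 9.02 ± 0.12 (SD, n = 7) and that of the small subunit 9.08 ± 0.10. In the high-fat group they were 9.12 ± 0.12 (SD, n = 6) and 9.19 ± 0.10. Large minus small, each taken from its own mean over the arrays, was 0.0036 ± 0.034 (SD, n = 7) in controls. In the high-fat group it was -0.0042 ± 0.025 (SD, n = 6), a difference smaller than the spread in either group. This balance ran from -0.06 in control 658 to 0.05 in control 631, both controls, so the widest imbalance lay within 1 group.

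Grouping by the place of a protein in the assembled ribosome gave like values. Mrps30 and Mrps18a carry small subunit names, although their proteins sit in the large subunit. Placing them there gave a median of 0.10 for the large and 0.12 for the small subunit. Genes with a counterpart in bacterial ribosomes, 39 of the 68, had a median of 0.11, and the 29 others also had a median of 0.11. In this split Mrps18c was counted with a counterpart, and its paralogs Mrps18a and Mrps18b were counted without one.

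**Figure D3:**
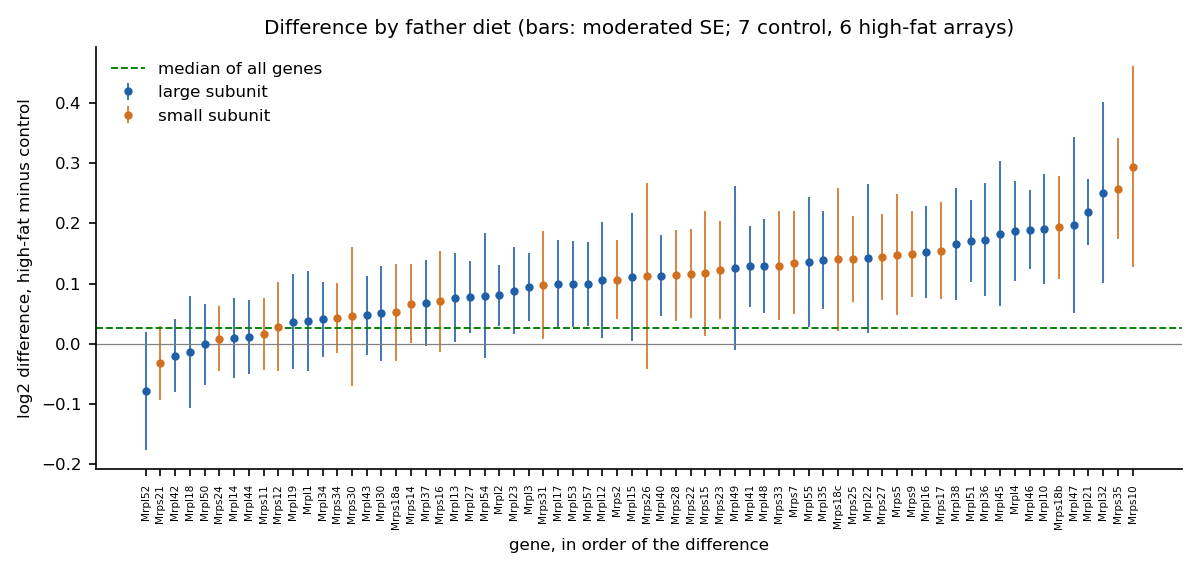
Points are the log2 difference, high-fat minus control, of each of the 68 genes in order of size, with limma's moderated standard error as bars, large subunit genes in blue and small subunit genes in orange. The difference is above 0 for 63 genes, the subunits are mixed along the order, and the dashed line marks the median of all genes at 0.03.

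Among large subunit members, Mrpl21, the counterpart of a bacterial large subunit protein, had the smallest p of the 68. Its log2 level was 9.61, 9.55, 9.68, 9.65, 9.55, 9.76 and 9.72 in controls 622, 627, 631, 656, 658, 662 and 664. In high-fat daughters 619, 620, 624, 629, 660 and 663 it was 9.94, 9.80, 9.99, 9.82, 9.86 and 9.77. All 6 high-fat values were above all 7 control values, by a narrow margin at high-fat 663 and control 662. Of the 68 members 1 had groups that did not overlap, and of all genes 0.0551% did so in the higher direction. The difference was 0.22 ± 0.05 (SE), with an unadjusted p of 0.0012 and an adjusted p of 0.53 in limma.

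Mrpl21 was not low in every array where most members were. In high-fat 660, where the member mean was lowest of its group, Mrpl21 read 9.86, the third highest of its 6 values. With the SD of each array as a term, its difference was 0.19 ± 0.05 (SE), while the median of the members was 0.0048. In animals 619 to 631 its difference was 0.27 and in animals 656 to 664 it was 0.15, and leaving out any 1 array gave 0.19 to 0.24. Its adjusted p in limma was 0.276 or more in each of these fits, so it did not pass in any of them.

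Mrpl46, Mrpl51 and Mrpl4 were the other large subunit members with an unadjusted p under 0.05. Mrpl46, a large subunit protein with no bacterial counterpart, ran from 8.71 to 9.01 in controls with a median of 8.93, and from 8.97 to 9.25 in high-fat daughters with a median of 9.08. High-fat 629, 660 and 663 lay between 8.97 and 9.01, at the upper end of the controls, and the difference was 0.19 ± 0.07 (SE) (unadjusted p = 0.012 in limma). Mrpl51, which also has no bacterial counterpart, ran from 10.41 to 10.65 in controls (median 10.63) and from 10.49 to 10.88 in high-fat daughters (median 10.76). High-fat 660 was the only high-fat array inside the control range, and the difference was 0.17 ± 0.07 (SE).

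Mrpl4, a counterpart of a bacterial protein that binds ribosomal RNA early in assembly, fell into separate levels within the high-fat group. It read 10.95 to 11.07 in high-fat 619, 620, 624 and 663, and 10.62 and 10.61 in high-fat 629 and 660, while controls ran from 10.49 to 10.77. The difference was 0.19 ± 0.08 (SE), and its adjusted p in limma, like that of Mrpl46 and Mrpl51, was 0.53.

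The other large subunit members with the smallest p had unadjusted values above 0.05. Mrpl10, which anchors the stalk of the large subunit, differed by 0.19 ± 0.09 (SE), Mrpl16 by 0.15 ± 0.08, Mrpl41 by 0.13 ± 0.07 and Mrpl36 by 0.17 ± 0.09. A second probe of Mrpl41, which was not kept, gave 0.16 ± 0.07 with an unadjusted p of 0.039. Mrpl12, the stalk protein carried by Mrpl10 and a binding partner of the mitochondrial RNA polymerase, differed by 0.11 ± 0.10. Of the 4 large subunit members with a lower mean, Mrpl52 had the largest difference, -0.08 ± 0.10 (SE), within its error.

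In the small subunit, Mrps35 had the smallest p. This protein has no bacterial counterpart. It read 8.22 to 8.55 in controls with a median of 8.40, and 8.40 to 8.84 in high-fat daughters with a median of 8.73. The values of high-fat 619, 620, 624 and 629 were above all controls, and those of 660 and 663 were inside the control range. The difference was 0.26 ± 0.08 (SE), with an unadjusted p of 0.0082 and an adjusted p of 0.53 in limma. With array SD as a term it was 0.18 ± 0.08 (SE), and Mrps35 and Mrpl21 were the 2 members that then had an unadjusted p under 0.05, against 2.81% of all genes.

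Mrps18b belongs to a trio of paralogs that descend from 1 bacterial small subunit protein. Only Mrps18c holds the ancestral place, Mrps18b sits elsewhere in the small subunit and Mrps18a in the large one. Mrps18b read 8.32 to 8.84 in controls (median 8.67) and 8.62 to 9.01 in high-fat daughters (median 8.86), a difference of 0.19 ± 0.09 (SE) with an unadjusted p of 0.040. Mrps18c differed by 0.14 ± 0.12 and Mrps18a by 0.05 ± 0.08 (SE), each less than the SD within its groups (0.23 and 0.15), and the signs of both turned with array SD as a term (-0.02 and -0.05). Mrps9 (0.15 ± 0.07), Mrps27 (0.14 ± 0.07) and Mrps25 (0.14 ± 0.07) had the next smallest p, each above 0.05.

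**Figure D4:**
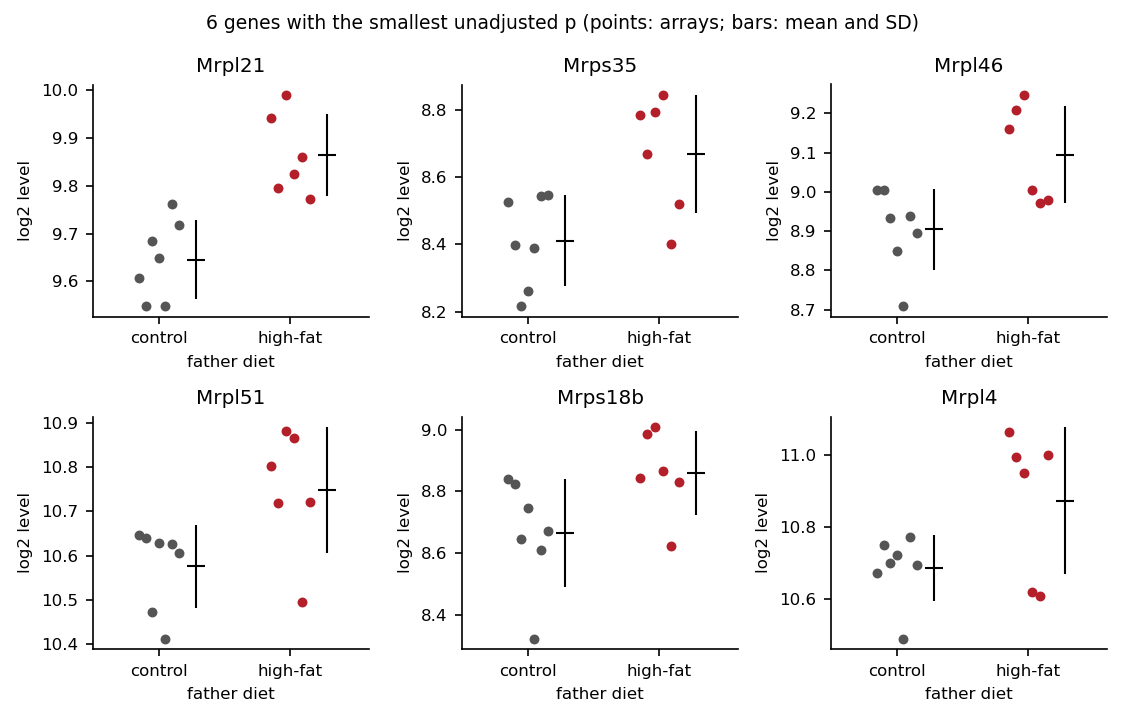
Log2 levels of the 6 genes with an unadjusted p under 0.05, with each point 1 array (7 control in grey, 6 high-fat in red) and bars for the mean and SD. Groups are apart for Mrpl21 alone, with 9.55 to 9.76 in control and 9.77 to 9.99 in high-fat daughters.

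Members differed in how much they varied between daughters of 1 group. The SD within groups ran from 0.07 for Mrpl2, the counterpart of a protein at the catalytic centre of bacterial ribosomes, to 0.33 for Mrps10. Mrpl2 carries 1 identical deposited value, 7.53, in 8 of the 13 arrays, 5 control and 3 high-fat, so its small SD is that of a repeated value. It is the 1 member of 68 with such a value in 8 or more arrays, against 0.0138% of all genes. The median over members was 0.14, against 0.15 over all genes. Mrps24 varied least in the small subunit (0.08) and differed by 0.0085 ± 0.054 (SE) between diets.

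Mrps10 had the largest difference of the 68, 0.29 ± 0.17 (SE), and an unadjusted p of 0.10. Its 7 control values ran from 7.71 to 8.15. In the high-fat group it read 8.58, 8.48 and 8.76 in daughters 619, 620 and 663, but 7.90, 7.99 and 7.54 in daughters 624, 629 and 660. The 3 high values were above every control and the 3 low ones within or below the control range, so the group was split.

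Mrps26 was the next most variable small subunit member, and its high values lay in both groups. It read 10.30 in control 622, 10.07 in control 627 and 10.20 in high-fat 620, and 9.19 to 9.86 in the other 10 arrays. In the large subunit, Mrpl32, whose processing on import precedes ribosome assembly, ran from 7.62 to 8.47 in controls and from 7.98 to 8.74 in high-fat daughters. Mrpl47 ran from 7.79 to 8.46 and from 7.67 to 8.69, and Mrpl49 from 7.36 to 8.20 and from 7.57 to 8.17. Within the high-fat group, 660 gave the lowest value of all 3, and within controls 658 did, as in the common movement of the members. Their differences between diets were 0.25 ± 0.15, 0.20 ± 0.15 and 0.13 ± 0.14 (SE). Mrps30 differed by 0.05 ± 0.12 (SE).

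The animal numbers fall into 2 ranges whose meaning the labels do not give, and the members' values are given in each. In animals 619 to 631, with 4 high-fat and 3 control daughters, the median difference of the members was 0.13, with 60 of 68 higher against 55.9% of all genes. There 15 members had an unadjusted p under 0.05, all higher, against 13.7% of all genes in either direction and 6.06% in the higher direction. In animals 656 to 664, with 2 high-fat and 4 control daughters, the median was 0.02, with 43 of 68 higher against 58.5% of all genes. There 0 members had such a p, against 0.931% of all genes, and 1 of the 2 high-fat arrays was 660. Limma gave 0 members an adjusted p under 0.05 in either range. Array SD parted the diet groups by 0.06 in the first range and by 0.0064 in the second, and the mean of the muscle genes parted them by 1.49 and by -2.24. Their part in the members' values was not tested within a range.

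The dependence on the number range was itself tested, gene by gene. Limma's interaction of diet and range gave 0 members an adjusted p under 0.05, as for all genes (0.0%). At an unadjusted p under 0.05 it gave 2 members, against 3.47% of all genes. A dependence on the range was thus not shown for any single member. First range minus second, the members' differences had a median of 0.11 with 54 of 68 above 0. Over all genes the median was 0.0004, with 7265 of 14506 above 0. For the members as a set this was not tested. The 2 members with an unadjusted p under 0.05 were both of the small subunit, Mrps12 and Mrps35. Mrps12, part of the decoding centre, differed by 0.18 in the first range and by -0.16 in the second, and Mrps35 by 0.39 and 0.03. The difference of Mrps12 over all arrays was 0.03 ± 0.07 (SE). It was named after its values were seen.

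**Figure D5:**
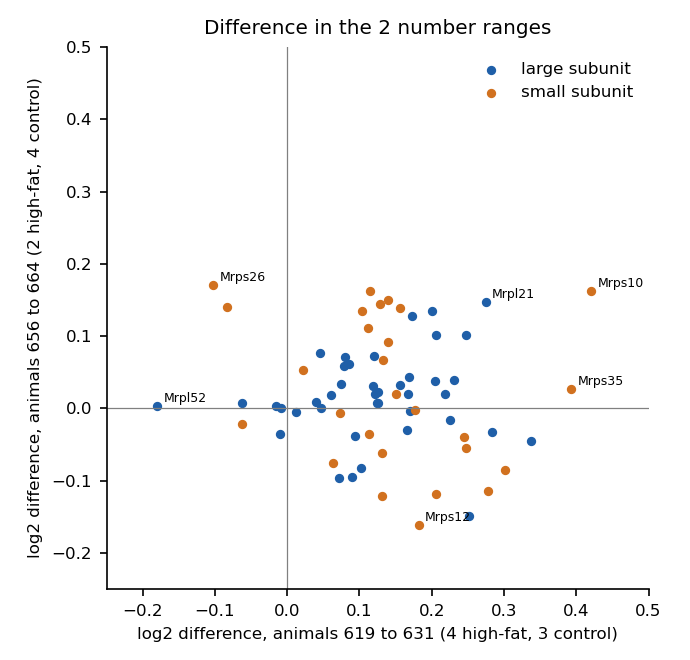
Each point is 1 gene, with its log2 difference, high-fat minus control, in animals 619 to 631 on the horizontal axis and in animals 656 to 664 on the vertical axis, large subunit in blue and small subunit in orange. Most points, 60 of 68, lie to the right of 0, while 43 of 68 lie above 0.

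Genes that build and run the mitochondrial ribosome shifted like its proteins. Of 63 listed translation and assembly factors 44 were measured, and 42 of them were higher in high-fat daughters, with a median of 0.12. Of all genes 58.0% were higher. None of the 44 passed limma's test over all genes, while 9, each with a higher mean, had an unadjusted p under 0.05. That is 20.5% of the factors, against 7.96% of all genes in either direction and 5.42% in the higher direction. The 4 with the smallest p were Mterf3, which acts on mitochondrial transcription and ribosome assembly (0.17 ± 0.06), Gtpbp10, a GTPase of large subunit assembly (0.22 ± 0.08), Lrpprc, which stabilises mitochondrial messenger RNAs (0.23 ± 0.09), and Eral1, a chaperone of the small subunit RNA (0.22 ± 0.08), each with an adjusted p of 0.53 in limma. The count of 9 varied between fits, and the share of all genes in the same fit is given beside it. It stayed at 9 without high-fat 620 (4.09% of all genes). With the number range as a term it was 7 (4.21%), as it was without control 658 (4.70%). It was 22 without high-fat 660 (17.3% of all genes), 4 without high-fat 619 (4.07%), 5 without high-fat 624 (3.5%) and 5 without control 631 (4.92%). It was 2 without the 4 arrays with muscle signal (3.79%), where the median was 0.08, and 12 without the 3 arrays of smallest SD (9.62%). In animals 619 to 631 it was 14 (13.7%), in animals 656 to 664 it was 0 (0.931%), with array weights 14 (15.0%), and with array SD as a term 1 (2.81%), where the median was 0.03. Without the 4 arrays with high Ucp1 it was 7 (7.17%).

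Proteins of the mitochondrial ribosome that carry other names did likewise. Of 7 listed 5 were measured and all 5 had a higher mean, with a median of 0.13. In animals 619 to 631 their median was 0.23, with all 5 higher, and in animals 656 to 664 it was -0.02, with 2 of 5 higher. Dap3, a small subunit protein first described in cell death, differed by 0.18 ± 0.07 (SE) and had an unadjusted p of 0.029 in limma. Of 33 complex I subunits, whose assembly needs the products of this ribosome, 30 were higher, with a median of 0.13. Of all genes 58.0% were higher, as were 84.4% of those with a mean level above 8.14. In animals 619 to 631 the complex I median was 0.17, with 30 of 33 higher, and in animals 656 to 664 it was -0.01, with 14 higher. With array SD as a term the complex I median was 0.05. The 67 cytosolic ribosomal protein genes, with a median level of 11.27, had a median difference of 0.0035, with 35 higher and 32 lower.

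Promoter sequences were found in RefSeq (GRCr8) for 54 of the 68 members, and are described because the members moved together. The 54 genes lie on 17 chromosomes. In the 250 bases before the start, the letters GCGCATGCG on either strand, from the site of nuclear respiratory factor 1 (NRF1), were found in 5 members, 9.26%, against 1.87% of 19005 protein-coding promoters. The letters CCGGAAG on either strand, the core bound by ETS factors such as GABP, were found in 11 members, 20.4%, against 9.52%. The letters AAGATGGCG of YY1 on either strand were in 1 member, Mrpl36, and in 0.784% of all. The end of the ETS letters is the start of the YY1 letters, so these motifs can overlap, and Mrpl36 holds both. Members with and without the NRF1 letters had median differences between diets of 0.14 (n = 5) and 0.11 (n = 49). Those with and without the ETS letters had 0.10 (n = 11) and 0.11 (n = 43).

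The stretches around the NRF1 letters are shown for the 5 members that hold them, to compare their flanks, with the matched letters in capitals and 5′ to 3′ on the gene's strand. Where the match reads on both strands, the capitals run 1 base longer. They lie at chr1:169575711-169575789 (minus strand) for Mrpl17, chr10:42845846-42845909 (plus) for Mrpl22, chr17:55260554-55260632 (plus) for Mrpl32, chr9:88554883-88554961 (plus) for Mrpl44 and chr20:2842951-2843005 (plus) for Mrps18b.
Mrpl17: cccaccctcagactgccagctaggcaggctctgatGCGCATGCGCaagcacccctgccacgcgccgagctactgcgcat
Mrpl22: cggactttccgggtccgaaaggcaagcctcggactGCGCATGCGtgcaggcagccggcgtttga
Mrpl32: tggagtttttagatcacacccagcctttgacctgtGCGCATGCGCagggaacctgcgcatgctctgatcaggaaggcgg
Mrpl44: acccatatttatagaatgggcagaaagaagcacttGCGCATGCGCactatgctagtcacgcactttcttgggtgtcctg
Mrps18b: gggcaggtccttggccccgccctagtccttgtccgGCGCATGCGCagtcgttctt
The capitals begin 55, 29, 62, 132 and 20 bases before the start. In this order the genes differed between diets by 0.10 ± 0.07, 0.14 ± 0.12, 0.25 ± 0.15, 0.01 ± 0.06 and 0.19 ± 0.09 (SE), so genes with these letters ranged from near 0 to among the largest differences.

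Many members have a gene that runs the other way close before their start. A divergent protein-coding start lay within 1000 bases before the start in 17 of the 54 members, 31.5%, against 6.99% of all protein-coding promoters. The starts lay 44 to 996 bases apart, with a median of 210, so not all fall within the 250 bases searched. The neighbour was measured for 14 of them, with a median difference between diets of 0.05 and 13 higher. Of all genes 58.0% were higher, as were 84.4% of those with a mean level above 8.14, where most of these neighbours lie. Mrpl46 and Mrps11, which are both members, are each counted as the neighbour of the other. Mrpl46 was the 1 neighbour with an unadjusted p under 0.05 in limma. Values of a member and its neighbour are given for 3 pairs. Mrps27 and its neighbour Ptcd2, which acts on mitochondrial RNA, differed by 0.14 ± 0.07 and 0.14 ± 0.10 (SE), but Mrps18b and Ppp1r10 by 0.19 ± 0.09 and 0.04 ± 0.09, and Mrpl47 and Ndufb5, a complex I subunit, by 0.20 ± 0.15 and 0.01 ± 0.07. The pairs were named after their values were seen.

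Mrpl46 and Mrps11 are divergent neighbours that are both members, 1 from each subunit. The 233 bases between their starts, chr1:142117031-142117263 on the plus strand, are shown because this short stretch lies before both genes. They hold none of the searched letters, so nothing is in capitals.
Mrpl46-Mrps11: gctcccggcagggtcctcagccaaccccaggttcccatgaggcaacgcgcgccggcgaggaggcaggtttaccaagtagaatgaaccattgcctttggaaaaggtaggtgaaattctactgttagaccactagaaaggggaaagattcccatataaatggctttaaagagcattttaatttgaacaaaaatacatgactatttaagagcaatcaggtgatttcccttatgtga
Mrpl46 differed between diets by 0.19 ± 0.07 (SE) and Mrps11 by 0.02 ± 0.06. The difference between these 2 values was not tested.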

How the data were processed

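Fat RNA of 13 rats was labelled with biotin and read on Affymetrix arrays, 1 per animal. The authors deposited log2 levels for 29214 probes, a scale inferred from their range of 3.24 to 14.54. RMA and Partek are named in the submitters' processing notes, without versions. Filters were not given in the sources used here. RMA draws arrays toward a common distribution, but differences in spread remained.

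Probes were named from the platform annotation, 15310 with 1 symbol and 323 with several, while 13581 are not listed. For genes with several probes the brightest was kept, which left 14506 genes, and 4 members had 2 probes. All 68 members matched RefSeq (GRCr8) by Entrez ID. Background was not assessed.

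Groups were compared with limma 3.58.1 in R 4.3.3 without a covariate. Tests were two-sided, and p-values were adjusted by Benjamini and Hochberg's method over the 14506 genes, with a threshold of 0.05. Scores over members have no p-value. Genes were named by the smallest p (8 large, 5 small), the largest and smallest SD, or known placement. Of the translation factors, the 4 with the smallest p were named. Members and lists were chosen with earlier results of these data known. The main fit was tested on simulated data with 200 changed genes and noise drawn independently for each gene. At an adjusted p under 0.05 it recovered 21.2% of changes of 0.25 log2 and 78% of changes of 0.5. Changes as small as the members' median of 0.11 were not simulated. Alternatives are given in the closing section.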

Additional observations from a re-analysis of the deposited data

Results flagged for a closer look

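In 9 of 64 groups screened, 1 array lay far from the rest of its group, where chance alone flags about 1 in 20 groups, and the screened values are not independent. High-fat 660 was low in the mean of all members (8.94, the other high-fat arrays 9.14 to 9.24), of the large subunit (8.90, others 9.11 to 9.23) and of the small subunit (8.99, others 9.19 to 9.27). It was also low for Mrpl41 (8.23, others 8.56 to 8.66) and Mrpl47 (7.67, others 8.34 to 8.69). Control 658 was low for Mrpl4 (10.49, other controls 10.67 to 10.77) and Mrps27 (8.17, others 8.40 to 8.51). High-fat 619 was high for Mrps9 (7.99, others 7.67 to 7.77) and Mrpl2 (7.68, others 7.53 to 7.56), whose value is identical in 3 of the other 5 high-fat arrays.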

How the results depend on the processing

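No paired analysis was possible because the groups share no replicate number. In every alternative run, 0 members had an adjusted p under 0.05. At an unadjusted p under 0.05 the main fit gave 6 members (7.96% of all genes). The share of all genes in the same fit follows each count, and it varied too. The count was 11 with arrays centred on their median (9.78%), 13 with array weights (15.0%) and 2 with array SD as a term (2.81%). It was 3 with the 4 muscle-rich arrays left out (3.79%), and 16 with the 3 arrays of smallest SD left out (9.62%). In animals 619 to 631 it was 15 (13.7%), and in animals 656 to 664 it was 0 (0.931%). Leaving out 1 array gave 3 (without high-fat 624, 3.5%) to 28 (without high-fat 660, 17.3%). The median of all members was 0.07 to 0.15 when 1 array was left out, that of the large subunit 0.06 to 0.15 and that of the small subunit 0.08 to 0.15, with the lowest value without control 658 and the highest without high-fat 660. With array SD as a term the medians of the large and small subunit were -0.0059 and 0.011. In animals 656 to 664 the median of the translation factors was 0.020. The difference of large and small medians lay between -0.03 and 0.0048 over all alternatives. Renewed quantile normalization gave a median of 0.08 for the members and centring gave 0.13, with 0.05 over all genes. The number range as a term gave 0.08, the muscle level 0.12 and the brown fat level 0.11. The 2 members with an unadjusted interaction p under 0.05 were 5 after renewed quantile normalization (4.88% of all genes) and 0 when the 4 arrays rich in muscle RNA were left out (1.17%).

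Signs turned in 29 of 779 values of 28 named genes, and the cause was not tested. With array SD as a term, they turned for Mrpl47 (-0.0059), Mrpl49 (-0.085), Mrps26 (-0.066), Mrps18c (-0.017), Mrps24 (-0.036), Mrps18a (-0.046), Mrps30 (-0.089) and Mrpl12 (-0.031). In animals 656 to 664 they turned for Mrpl47 (-0.017), Mrps18c (-0.086), Mrps24 (-0.076), Mrps18a (-0.0067) and Mrps30 (-0.12), and in animals 619 to 631 for Mrps26 (-0.10). After renewed quantile normalization they turned for Mrps24 (-0.053), Mrps18a (-0.0066) and Mrps30 (-0.0018). Without the 3 arrays of smallest spread they turned for Mrps24 (-0.013) and Mrps18a (-0.010), with array weights for Mrps24 (-0.013), and, with the 4 muscle-rich arrays left out, for Mrps30 (-0.00036). With the 4 arrays of highest Ucp1 left out, an alternative chosen after seeing the data, they turned for Mrps24 (-0.0080), Mrps18a (-0.038), Mrps30 (-0.0042) and Mrpl12 (-0.00064). Leaving out 1 array gave -0.016 to 0.029 for Mrps24 and -0.0063 to 0.15 for Mrps30.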
